A study of Mus musculus with 6 samples.

Results

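Genes that make, break down and sense prostaglandins were examined in the kidneys of cisplatin-treated WT and Trpm2-/- mice. The 10 genes were chosen by name: the cyclooxygenases Ptgs1 and Ptgs2, the terminal synthases Ptges, Ptges2, Ptges3 and Ptgds, the degrading enzyme Hpgd, and the prostaglandin E receptors Ptger1, Ptger3 and Ptger4. All 10 are among the 54532 genes of the deposited tables, and all 10 passed the filter on low counts that kept 15816 genes. RNA was sequenced from kidney tissue of 3 WT and 3 Trpm2-/- (labelled KO) mice of the C57BL/6J strain. The mice were labelled 6 to 8 weeks old, while the study's methods give an older range and male sex. Every mouse had received cisplatin at 18 mg/kg and was killed 72 h later, so both genotypes share the drug and no untreated kidney enters the comparison. The Trpm2-/- mice carry a deletion of a pair of exons that code for transmembrane segments of the cation channel TRPM2, a sensor of oxidative stress. WT mice were bought from a supplier and the Trpm2-/- line came from another institution, and littermates were not stated. The libraries are numbered 1, 2 and 3 for WT and 1, 2 and 4 for Trpm2-/- mice.

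Prostaglandins are made from arachidonic acid, which phospholipase A2 enzymes release from membranes. The cyclooxygenases COX-1 (Ptgs1) and COX-2 (Ptgs2) turn it into prostaglandin H2, and terminal synthases convert this intermediate into prostaglandin E2, D2 and others. In the kidney, prostaglandin E2 acts on blood flow, renin release and salt and water transport through the EP receptors, and 15-hydroxyprostaglandin dehydrogenase (Hpgd) inactivates it. COX-1 is known as the constitutive form, abundant in collecting duct, while COX-2 is inducible and is found in the macula densa, the thick ascending limb and interstitial cells of the medulla.

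The promoter stretches of Ptgs2 and Ptger4 are printed because these were the genes that passed the test, and that of Ptgs1 because it is the other cyclooxygenase. Each runs from 250 bases before to 30 bases after the start of the gene in RefSeq (GRCm38.p6), 5′ to 3′ on the strand of the gene. The positions are chr1:150099781-150100060 (plus strand) for Ptgs2, chr2:36230176-36230455 (plus strand) for Ptgs1 and chr15:5244158-5244437 (minus strand) for Ptger4. Capitals mark matches to any of 4 motifs searched on both strands. The TATA box is spelled TATAAA. The core of the cyclic AMP response element is spelled TGACG and the E-box is spelled CACGTG. The NF-κB letters are 3 G, then 5 bases of any kind, then a pair of C.
Ptgs2: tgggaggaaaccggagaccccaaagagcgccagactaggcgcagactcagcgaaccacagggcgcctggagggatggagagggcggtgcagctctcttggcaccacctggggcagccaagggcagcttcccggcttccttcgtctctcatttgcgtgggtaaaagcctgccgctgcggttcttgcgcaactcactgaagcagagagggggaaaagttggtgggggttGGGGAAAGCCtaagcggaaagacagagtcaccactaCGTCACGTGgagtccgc
Ptgs1: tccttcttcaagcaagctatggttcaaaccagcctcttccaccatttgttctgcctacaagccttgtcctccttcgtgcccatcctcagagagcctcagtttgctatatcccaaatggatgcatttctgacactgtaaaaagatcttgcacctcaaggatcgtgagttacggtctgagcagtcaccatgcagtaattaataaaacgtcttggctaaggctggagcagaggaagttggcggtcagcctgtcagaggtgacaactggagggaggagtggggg
Ptger4: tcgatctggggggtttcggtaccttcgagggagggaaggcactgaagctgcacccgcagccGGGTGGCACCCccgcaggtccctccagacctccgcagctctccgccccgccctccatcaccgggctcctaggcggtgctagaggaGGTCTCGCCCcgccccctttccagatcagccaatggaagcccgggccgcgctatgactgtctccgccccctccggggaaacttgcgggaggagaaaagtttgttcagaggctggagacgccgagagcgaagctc
Ptgs2 held an NF-κB match and, overlapping each other, the cyclic AMP element core (as CGTCA on this strand) and the E-box. The overlapping pair lies between base 14 and base 22 of the annotated gene. Ptger4 held 3 NF-κB matches, 2 of which overlap, and Ptgs1 held no match to the 4 motifs. Among the 32851 RefSeq promoter windows of the same length, 48.9% held the NF-κB letters, 19.9% the cyclic AMP element core, 13.1% the TATA box and 6.79% the E-box. RefSeq gave a promoter for 9 of the 10 genes, all but Ptger1. The NF-κB letters occurred in 6 of these 9, the cyclic AMP element core in Ptges3 and Ptgs2, the E-box in Ptges2 and Ptgs2, and the TATA box in Hpgd. A match describes letters in the window and is no evidence of binding.

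Library depth was 14053307 to 17150089 counts on genes, and 3 counts corresponded to 0.184 to 0.205 CPM (counts scaled to TMM library size, counting error only). Genes of the mitochondrial genome took 4.43% to 4.72% of the counts in WT and 7.91% to 11.0% in Trpm2-/- libraries. Trpm2 had 5 to 27 counts in WT and 10 to 20 in Trpm2-/- libraries (log2 fold change 0.36, adjusted p = 0.776), and since the count covers exons that the allele keeps, it does not check the genotype. The kidney label fitted its markers, with Slc34a1, Umod and Aqp2 of proximal tubule, thick ascending limb and collecting duct each at 14.3 FPKM or more (reads per kilobase of gene, scaled to library size) in every library. Summed FPKM of 5 urothelial markers was 29.1 in WT replicate 1 against 2.73 to 7.09 in the other 5 libraries. Summed FPKM of 5 podocyte markers was 81.4 in Trpm2-/- replicate 4 against 19.7 to 26.5 in the others.

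Of the 10 genes, Ptgs2 and Ptger4 were higher in Trpm2-/- kidneys and none was lower at an adjusted p under 0.05 (edgeR's quasi-likelihood test, Benjamini-Hochberg adjustment over all genes tested). Among all genes tested, 4.74% were higher and 7.28% lower by this rule. Ptgs2 and Ptger4 also passed the threshold of the study's methods, an absolute log2 fold change above 1 with a p under 0.05, which 7.60% of all genes passed, 3.50% as higher and 4.10% as lower. At an unadjusted p under 0.05, 4 of the 10 genes (Ptges2, Ptgds, Hpgd and Ptger3) were lower, against 14.3% of all genes, and DESeq2 and limma-voom each called 0 lower at an adjusted p under 0.05. The genotypes did not overlap for 4 of the 10 genes, Ptgs2 and Ptger4 upward and Ptges2 and Hpgd downward, where 33.5% of all genes did not overlap, 16.7% upward and 16.8% downward. The median log2 fold change of the 10 genes was -0.28, and that of all genes tested was 0.02.

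**Figure D1:**
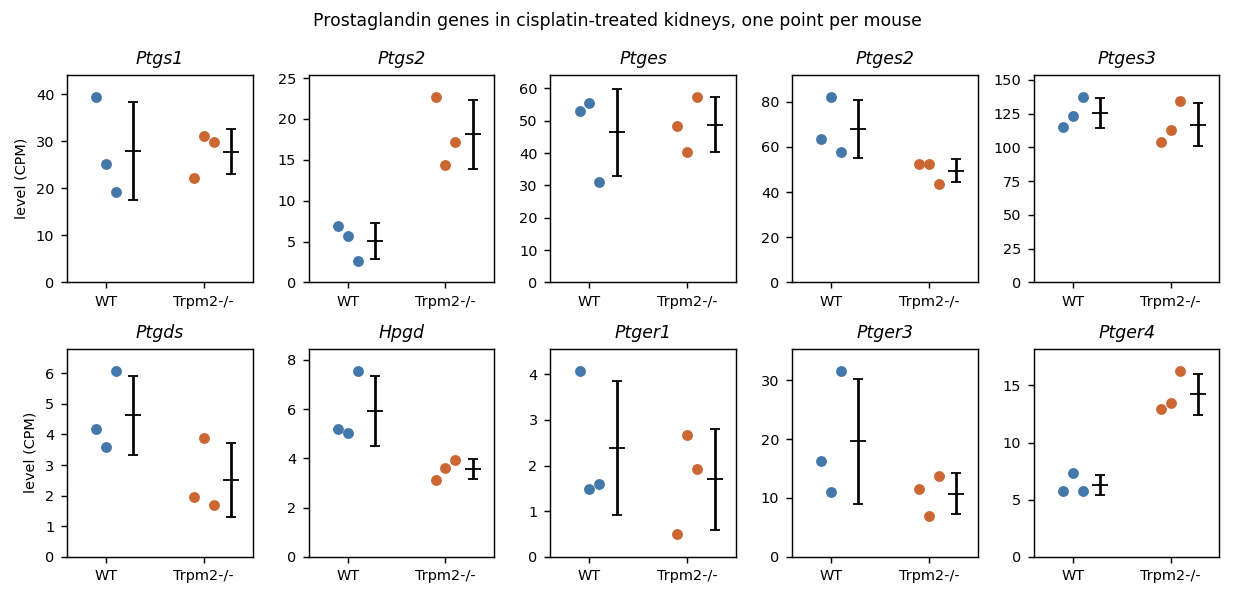
Levels of the 10 genes in CPM on a linear axis from 0, with one point per mouse in replicate order (blue WT, orange Trpm2-/-) and a bar at the mean with its SD (n = 3). For Ptgs2 the highest WT mouse is at 6.91 and the lowest Trpm2-/- mouse at 14.4, and for Ptger4 these are 7.32 and 12.9.

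Ptgs2, which encodes the inducible COX-2, lies on chromosome 1 from 150100031 to 150108227 (plus strand, GRCm38). It had 6.91, 5.65 and 2.58 CPM in the WT mice and 22.7, 14.4 and 17.2 CPM in the Trpm2-/- mice. Every Trpm2-/- kidney was above every WT kidney, and WT replicate 3 was the lowest of all. The fitted fold was 3.59, a log2 fold change of 1.84 (standard error 0.339, 95% interval 1.08 to 2.60, adjusted p = 0.00913). With any 1 mouse left out it stayed between 1.52 and 2.13, with adjusted p from 0.0121 to 0.0366. No other gene shared a 75-base window of its transcripts.

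Ptgs1, which encodes COX-1 (chromosome 2, 36230426 to 36252272, plus strand), had 39.4, 25.3 and 19.1 CPM in WT and 22.2, 31.1 and 29.9 CPM in Trpm2-/- kidneys. The genotypes overlapped throughout, and WT replicate 1 was the highest of the 6. With a log2 fold change of -0.01, the 95% interval ran from -0.58 to 0.55 (adjusted p = 0.983). WT replicate 1 was also the library with 29.1 FPKM of urothelial markers, a list of which 3 of 5 were tested and Upk3a was lower in Trpm2-/- kidneys. Without it the log2 fold change of Ptgs1 was 0.31 (adjusted p = 0.396). Markers of collecting duct principal cells were lower in sum in every Trpm2-/- kidney (411 to 533 FPKM) than in any WT kidney (753 to 956 FPKM). Most of that sum was Aqp2 (596 to 787 FPKM in WT), which was lower, as was Aqp3. Scnn1b, Scnn1g and Hsd11b2 of the same list overlapped between genotypes and did not pass (log2 fold changes -0.57, -0.14 and -0.23). The part of urothelium or collecting duct in the Ptgs1 values was not tested.

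Because FPKM is set per length, both cyclooxygenases can be placed on 1 scale. Ptgs2 made up 12.9%, 16.0% and 10.2% of the summed FPKM of Ptgs1 and Ptgs2 in the WT kidneys. In the Trpm2-/- kidneys it made up 46.4%, 28.2% and 32.8%. By FPKM, Ptgs1 stayed the higher of the pair in all 6 kidneys. In Trpm2-/- replicate 1 this order rested on gene length (3884 bases for Ptgs1 and 4580 for Ptgs2). There Ptgs1 had 363 counts and Ptgs2 had 371. The sum was 10.2, 6.77 and 4.79 FPKM in WT and 9.40, 9.77 and 10.2 FPKM in Trpm2-/- kidneys, so the genotypes overlapped in the sum through WT replicate 1. The log2 ratio of Ptgs2 to Ptgs1 was -2.76 ± 0.367 in WT and -0.86 ± 0.589 in Trpm2-/- kidneys (SD, n = 3).

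Markers of the cells in which COX-2 is usually found were read beside it. Nos1, which defines the macula densa in the kidney, had 0, 0 and 3 counts in WT and 5, 0 and 3 counts in Trpm2-/- libraries, too few to follow those cells. The other 4 markers of its list, those of the thick ascending limb, had negative log2 fold changes, of which Umod passed the test (Slc12a1 -0.76, Umod -1.97, Cldn16 -0.92 and Egf -1.07). Summed FPKM of 5 markers of the interstitial fibroblast was 5.85 to 9.27 in WT and 4.66 to 16.1 in Trpm2-/- kidneys, with a median log2 fold change of 0.06. Of 5 markers of tubule injury, Krt20 and Sox9 rose, by 0.79 and 1.16 on the log2 scale (adjusted p = 0.0189 and 0.0115). Havcr1, Lcn2 and Vcam1 of the same list did not pass (log2 fold changes 0.51, 0.38 and 0.47, adjusted p = 0.0747, 0.199 and 0.306). The list summed to 1037 to 1234 FPKM in WT and 1480 to 1857 FPKM in Trpm2-/- kidneys. Most of that sum was Havcr1 and Lcn2. The part of these cells or of injured tubules in the Ptgs2 values was not tested. In RNA of kidney tissue, more cells of a type and more RNA per cell cannot be told apart, here or for the genes that follow.

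**Figure D2:**
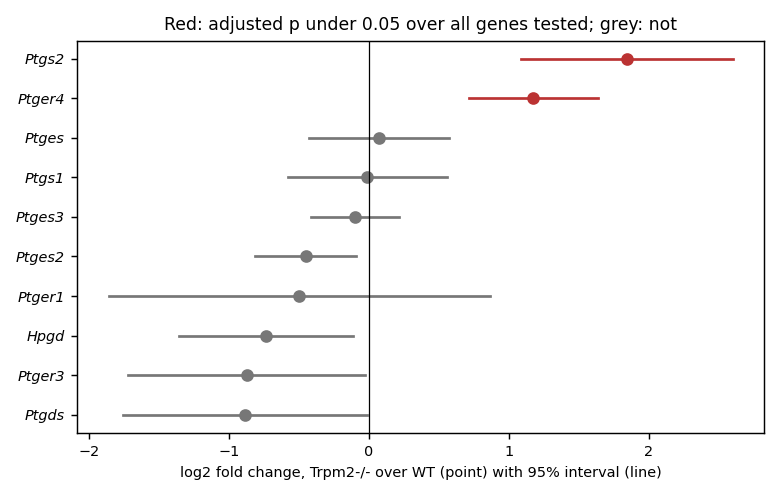
Log2 fold change of each gene, Trpm2-/- over WT, as a point with its 95% interval as a line, ordered by size. Ptgs2 (1.84) and Ptger4 (1.17), in red, have an adjusted p under 0.05, and the widest interval is that of Ptger1, from -1.86 to 0.86.

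The 3 prostaglandin E synthases had no change that passed the test. Ptges encodes the microsomal synthase usually induced together with COX-2 (chromosome 2, 30889471 to 30929863, minus strand). It had 53.0, 55.5 and 31.0 CPM in WT and 48.3, 40.5 and 57.4 CPM in Trpm2-/- kidneys. Its genotypes overlapped, with a log2 fold change of 0.07 (95% interval -0.43 to 0.57, adjusted p = 0.876) whose sign turned without WT replicate 3 (-0.16) or Trpm2-/- replicate 4 (-0.06). Ptges3, the cytosolic synthase also known as the HSP90 co-chaperone p23 (chromosome 10, 128058954 to 128077272, plus strand), was the most abundant of the 10 genes. It had 116, 123 and 138 CPM in WT and 104, 113 and 134 CPM in Trpm2-/- kidneys, a log2 fold change of -0.10 (95% interval -0.42 to 0.22, adjusted p = 0.692). Of its 75-base windows 18.5% also occur in 2 processed pseudogenes, one of which, Ptges3-ps, had 263 to 296 counts in WT and 151 to 371 in Trpm2-/- libraries, so its reads may be split between copies.

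Ptges2 encodes the membrane-associated synthase (chromosome 2, 32395896 to 32405772, plus strand). It had 63.4, 82.2 and 57.6 CPM in WT and 52.5, 52.3 and 43.7 CPM in Trpm2-/- kidneys. All Trpm2-/- kidneys were below all WT kidneys. The difference of -0.45 on the log2 scale (95% interval -0.81 to -0.09) missed the threshold after adjustment (adjusted p = 0.0986).

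Ptgds encodes the lipocalin-type prostaglandin D synthase (chromosome 2, 25466709 to 25470046, minus strand). It had 68, 56 and 99 counts in WT and 32, 57 and 27 counts in Trpm2-/- libraries, which is 4.19, 3.60 and 6.07 against 1.96, 3.89 and 1.68 CPM. Trpm2-/- replicate 2 lay inside the WT range and the other Trpm2-/- mice below it. The log2 fold change was -0.88 (95% interval -1.76 to -0.01, adjusted p = 0.171), and without Trpm2-/- replicate 2 it was -1.34 (adjusted p = 0.0503).

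Hpgd starts the breakdown of prostaglandin E2 by oxidizing its 15-hydroxyl group (chromosome 8, 56294585 to 56321043, plus strand). It had 5.18, 5.01 and 7.55 CPM in WT and 3.12, 3.62 and 3.92 CPM in Trpm2-/- kidneys. The genotypes did not overlap. The difference of -0.73 on the log2 scale (95% interval -1.35 to -0.11) missed it too (adjusted p = 0.117). All 5 proximal tubule markers fell, and their summed FPKM was 300.5 to 389 in WT and 53.1 to 123 in Trpm2-/- kidneys. The part of the proximal tubule in the Hpgd values was not tested. The log2 ratio of Ptges to Hpgd, both in FPKM, was 2.13, 2.24 and 0.81 in WT and 2.73, 2.26 and 2.65 in Trpm2-/- kidneys, with WT replicate 2 and Trpm2-/- replicate 2 close to each other.

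Ptger4 encodes EP4, a receptor that raises cyclic AMP (chromosome 15, 5206661 to 5244187, minus strand). It had 5.80, 7.32 and 5.77 CPM in WT and 12.9, 13.5 and 16.3 CPM in Trpm2-/- kidneys. The genotypes lay far apart relative to the spread within each. The fitted fold was 2.26, a log2 fold change of 1.17 (standard error 0.206, 95% interval 0.71 to 1.64, adjusted p = 0.00756). With any 1 mouse left out it stayed between 1.08 and 1.29, with adjusted p from 0.0160 to 0.0474. Trpm2-/- replicate 4, which had the most podocyte markers, was the highest for Ptger4, while the podocyte markers of the other Trpm2-/- mice lay within the WT range. Only 82 of its 6648 exonic bases (1.23%) overlap exons of Ttc33 on the opposite strand, and Ttc33 had a log2 fold change of -0.32 (adjusted p = 0.424). Of the 75-base windows of Ptger4, 13.2% also occur in Ttc33 or the pseudogene Gm15937, more of them in Gm15937, which had no counts.

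Ptger3 encodes EP3, which lowers cyclic AMP and in the kidney is known from thick ascending limb and collecting duct (chromosome 3, 157566892 to 157645888, plus strand). It had 16.2, 11.1 and 31.5 CPM in WT and 11.4, 6.90 and 13.7 CPM in Trpm2-/- kidneys. WT replicate 3 stood apart, WT replicate 1 was also above every Trpm2-/- mouse, and WT replicate 2 lay within their range. The log2 fold change was -0.87 (95% interval -1.72 to -0.03, adjusted p = 0.164), and -0.36 (adjusted p = 0.604) without WT replicate 3. With no filter on low counts it passed, at -0.89 (adjusted p = 0.00122). Summed FPKM of the thick ascending limb and macula densa markers was 306, 196 and 572 in WT and 50.5, 88.6 and 196 in Trpm2-/- kidneys, and WT replicate 3 was again the highest. Of this list 4 of 5 were tested and Umod was lower (adjusted p = 0.0326). Summed FPKM of 5 markers of collecting duct principal cells was 753 to 956 in WT and 411 to 533 in Trpm2-/- kidneys. Aqp2 and Aqp3 were lower (adjusted p = 0.00602 and 0.0495), while Scnn1b, Scnn1g and Hsd11b2 overlapped between genotypes and did not pass. The part of either segment in the Ptger3 values was not tested.

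Ptger1 encodes EP1, which acts through calcium (chromosome 8, 83666678 to 83672753, plus strand), and had 66, 23 and 26 counts in WT and 8, 39 and 31 counts in Trpm2-/- libraries. The genotypes overlapped, with a log2 fold change of -0.50 (95% interval -1.86 to 0.86, adjusted p = 0.639) that was 0.13 without WT replicate 1. Whether counting used strand is not given in the sources used here, and the Ptger1 values are given as uncertain.

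**Figure D3:**
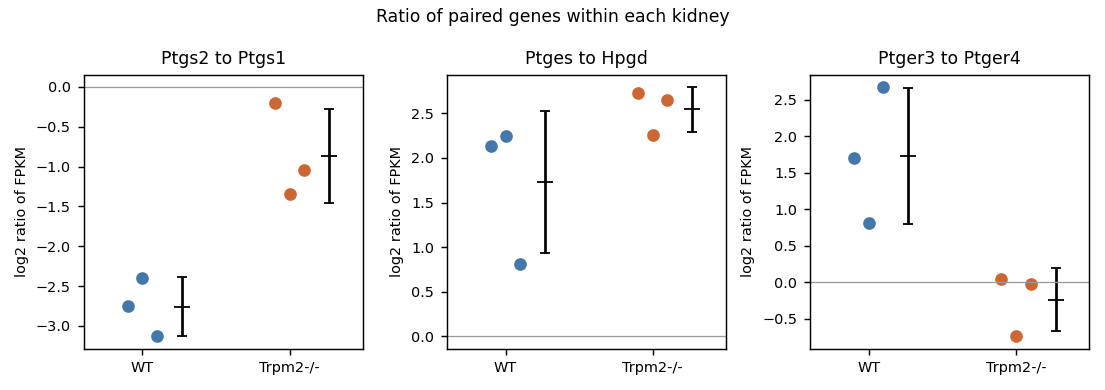
Log2 ratio of FPKM within each kidney for 3 pairs of genes, with one point per mouse in replicate order (blue WT, orange Trpm2-/-) and a bar at the mean with its SD (n = 3). Ptgs2 to Ptgs1 runs from -3.13 to -2.40 in WT and from -1.35 to -0.21 in Trpm2-/- kidneys, and Ptger3 to Ptger4 from 0.82 to 2.68 and from -0.74 to 0.05.

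Within each kidney the FPKM ratio of Ptger3 to Ptger4 did not overlap between genotypes. Ptger4 alone already did not overlap, while Ptger3 alone overlapped and did not pass, so the ratio is no separate finding. Ptger3 was 3.27, 1.76 and 6.39 times the FPKM of Ptger4 in the WT kidneys, and 1.04, 0.599 and 0.985 times in the Trpm2-/- kidneys. On the log2 scale the ratio was 1.73 ± 0.929 in WT and -0.24 ± 0.437 in Trpm2-/- kidneys (SD, n = 3). These ratios are a description without a test, as are those of the other pairs.

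Ranked by mean FPKM, the order in WT kidneys was Ptges3 (49.5), Ptges2 (11.7), Ptges (10.3), Ptgs1 (6.30), Hpgd (3.07), Ptger3 (3.01), Ptgds (2.45), Ptgs2 (0.965), Ptger4 (0.829) and Ptger1 (0.382). The ranges of neighbours were apart between Ptges3 and Ptges2, Ptgs1 and Hpgd, Ptgds and Ptgs2, and Ptger4 and Ptger1, and overlapped elsewhere. In Trpm2-/- kidneys Ptgs2 (3.49) ranked 5 and Ptger4 (1.89) ranked 6, above Hpgd (1.86), Ptger3 (1.66), Ptgds (1.34) and Ptger1 (0.274). There the range of Ptgs2 lay above that of Ptger4, Ptger4, Hpgd and Ptger3 each overlapped the next, and Ptgds lay above Ptger1. Ptges3 (46.6), Ptges (10.9), Ptges2 (8.63) and Ptgs1 (6.29) remained the top of the order.

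**Figure D4:**
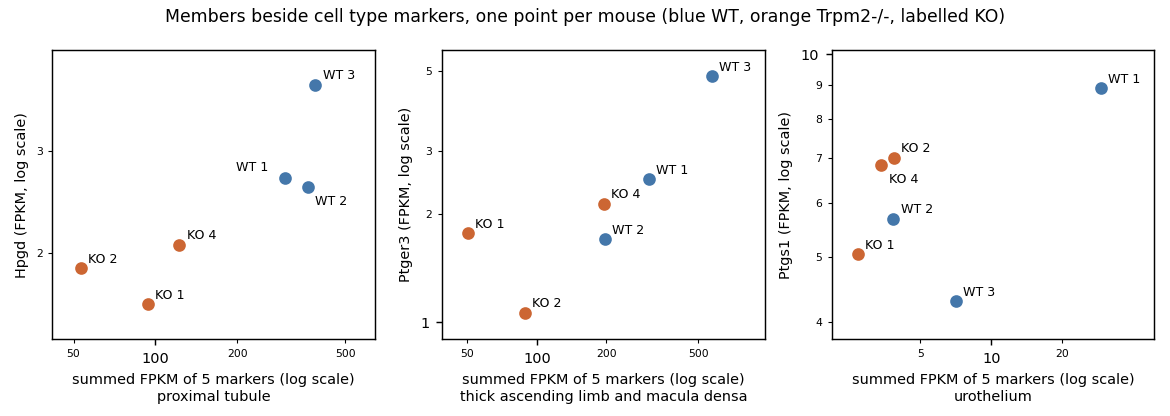
FPKM of Hpgd, Ptger3 and Ptgs1 against the summed FPKM of 5 markers of proximal tubule, thick ascending limb with macula densa, and urothelium, on log axes with one labelled point per mouse (blue WT, orange Trpm2-/-). WT 3 is highest on both axes in the first 2 panels, at 389 and 572 FPKM of markers, and WT 1 in the third, at 29.1.

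The wider pathway was read from a list of 48 other genes, of which 30 passed the filter. At an adjusted p under 0.05, 1 was higher (Hpgds) and 4 were lower (Cbr1, Fam213b, Ptgr1 and Pla2g16), together 16.7% of those tested against 12.0% of all genes. The median log2 fold change was -0.02, close to the 0.02 of all genes.

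Among 6 other synthases, Cbr1, a carbonyl reductase that can convert prostaglandin E2 to F2α, was lower. It had 151, 153 and 171 FPKM in WT and 79.9, 70.3 and 67.3 FPKM in Trpm2-/- kidneys (log2 fold change -1.14, adjusted p = 0.00215). Fam213b, which encodes a prostamide and prostaglandin F synthase, had 11.5, 15.1 and 14.9 FPKM in WT and 5.88, 6.35 and 4.95 FPKM in Trpm2-/- kidneys (-1.28, adjusted p = 0.00546). Hpgds, the hematopoietic prostaglandin D synthase, had 1.39, 1.32 and 0.883 FPKM in WT and 1.90, 2.45 and 2.02 FPKM in Trpm2-/- kidneys (0.81, adjusted p = 0.0437). The call of Hpgds was lost with any of the 6 mice left out (adjusted p from 0.0583 to 0.182). Akr1b3, an aldose reductase with prostaglandin F synthase activity, passed only the threshold of the study's methods (log2 fold change -1.38, adjusted p = 0.136). It had 25.2, 5.20 and 4.74 FPKM in WT and 4.13 to 5.22 FPKM in Trpm2-/- kidneys, and without WT replicate 1 its log2 fold change was -0.15. Ptgis and Tbxas1, of prostacyclin and thromboxane synthesis, stayed at or below 0.667 and 0.195 FPKM in every library.

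Of 5 genes of uptake, export and breakdown, Ptgr1 was lower. It encodes a reductase that acts after Hpgd in the breakdown, and had 10.2, 10.9 and 8.95 FPKM in WT and 4.63, 4.61 and 3.90 FPKM in Trpm2-/- kidneys (log2 fold change -1.20, adjusted p = 0.00299). The other breakdown genes listed, Ptgr2 and Zadh2, did not pass (log2 fold changes -0.18 and -0.03, adjusted p = 0.634 and 0.915). Abcc4, which exports prostaglandin E2, had 0.65 (adjusted p = 0.120), and Slco2a1, the prostaglandin uptake carrier, had 0.16 (adjusted p = 0.559). Of 18 phospholipase A2 genes 9 were tested, and Pla2g16 was lower, with 8.83, 10.3 and 9.69 FPKM in WT and 4.44, 4.64 and 6.08 FPKM in Trpm2-/- kidneys (-0.94, adjusted p = 0.00546). Pla2g4a, the cytosolic enzyme that releases arachidonic acid, had 0.728, 0.889 and 0.770 FPKM in WT and 1.47, 1.22 and 1.05 FPKM in Trpm2-/- kidneys. Its genotypes did not overlap, but the log2 fold change of 0.63 missed the threshold after adjustment (adjusted p = 0.103). Pla2g12a missed it in the other direction, also without overlap (log2 fold change -0.41, adjusted p = 0.103). It had 14.4, 19.4 and 17.4 FPKM in WT and 12.6, 14.2 and 12.1 FPKM in Trpm2-/- kidneys.

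Of 6 other prostanoid receptors, only Ptgfr and Tbxa2r had enough counts to be tested, and neither passed (log2 fold changes -0.10 and 0.40, adjusted p = 0.895 and 0.754). The EP2 receptor gene Ptger2 had no count in the WT libraries and stayed at or below 0.0532 FPKM in the Trpm2-/- libraries, which is not enough to compare. Of 13 genes of the lipoxygenase branch, which makes leukotrienes from the same arachidonic acid, 8 were tested, with a median log2 fold change of 0.29. Cysltr1, a leukotriene receptor, had a log2 fold change of 0.97 that did not pass (adjusted p = 0.161).

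**Figure D5:**
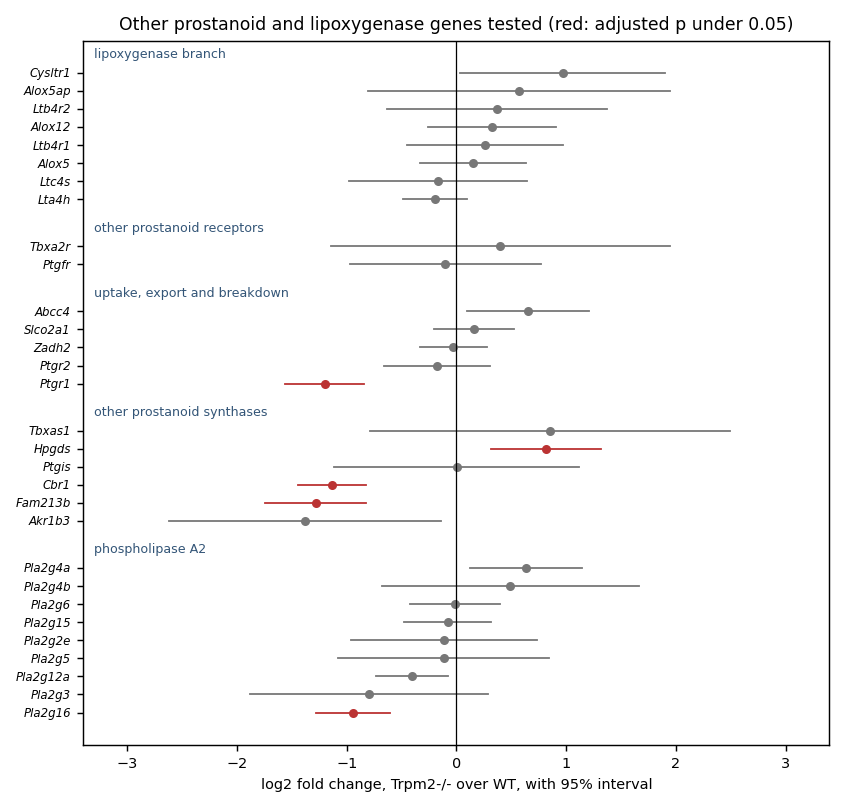
Log2 fold change, Trpm2-/- over WT, with its 95% interval for the 30 other prostanoid and lipoxygenase genes tested, grouped by branch, in red where the adjusted p is under 0.05. Hpgds (0.81) is the red point to the right of 0, and Pla2g16 (-0.94), Cbr1 (-1.14), Ptgr1 (-1.20) and Fam213b (-1.28) are to the left.

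The genes most like Ptgs2 across the 6 libraries, by Pearson's r of log2(CPM + 1) among 13006 genes with a mean of at least 1 CPM, were Bod1l (0.999), Baz1a (0.995), Cobl (0.994), Txnrd1 (0.994) and Hmga2 (0.992). The 6 points fall into the 2 genotypes and share their libraries, and 756 genes had an r above 0.9. Hmga2, which encodes an architectural chromatin protein, had 2.22, 2.18 and 1.35 CPM in WT and 5.75, 3.89 and 4.61 CPM in Trpm2-/- kidneys. As for Ptgs2, WT replicate 3 was the lowest and Trpm2-/- replicate 1 the highest for all 5 of these genes. Since they were picked by correlation with Ptgs2 in the same libraries, this shared order is no separate finding.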

How the data were processed

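RNA was isolated with Trizol from kidney, and libraries made with an NEBNext Ultra II kit were sequenced by Novogene on an Illumina HiSeq instrument. The submitters' processing notes name HISAT2, StringTie and the build mm9, while the positions of all 10 genes in the deposited tables equal those of GENCODE release M21 on GRCm38, the build used here. The counting tool and strandedness are not given in the sources used here. The authors deposited raw gene counts and FPKM values, whose library totals are not given in the sources used here.

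The count tables were fitted in edgeR 4.0.16 under R 4.3.3 (filterByExpr, TMM, quasi-likelihood test on genotype, two-sided, Benjamini-Hochberg over 15816 genes). CPM values use TMM library sizes, and each standard error was derived from the fold change and its F statistic. Intervals use the test's moderated degrees of freedom. Replicates differed by more than sampling noise (chi-square per degree of freedom 14.5 to 40.9). The p-values measure only the spread between these samples. Alternatives used DESeq2 1.42.0 and limma 3.58.1. On simulated counts with 193 genes changed 4-fold among 15552 tested, edgeR recovered 98.4% and called 10 other genes. Every simulated gene had the common dispersion (0.0445), and the 10 genes studied here had smaller fitted changes than 4-fold. The simulation therefore does not give the power for these genes. The genes and lists were chosen with earlier results of these data known. Named are all 10 genes, Trpm2, those of the wider list that passed either threshold or describe its groups, the 5 most like Ptgs2 (Gm and Rik models left out), and markers set beside a gene. Genes that share sequence with one of the 10 were named after their values were seen. One result on sequence overlap is not reported here.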

Additional observations from a re-analysis of the deposited data

How the results depend on the processing

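Ptgs2 and Ptger4 were the genes called higher under 15 of 17 alternatives. The number of the 10 genes called higher fell to 1 (Ptgs2) with the replicate number as a block, and to 0 by limma on log2(FPKM + 1) with no filter, where 28884 genes entered the adjustment (adjusted p = 0.0645 for Ptgs2 and 0.0820 for Ptger4). With no filter on low counts in edgeR, 2 were lower, Ptges2 (adjusted p = 0.0468) and Ptger3 (0.00122); the cause was not tested. By the study's threshold, limma on log2(FPKM + 1) called 1 higher with or without its filter, and leaving out each mouse gave 0 to 2 lower and 2 higher. In the wider list, the genes called higher numbered 2 with no filter in edgeR, 0 in each limma fit on FPKM and with the replicate block, and 0 to 1 with a mouse left out. Those called lower numbered 4 to 5 throughout.

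The log2 fold change of Ptgs1 turned positive with upper-quartile factors (0.026), limma-voom (0.035) and limma on FPKM (0.037 with a pseudocount of 1, filtered or not, and 0.048 with 0.1), and ran from -0.23 to 0.31 with a mouse left out, positive without WT replicate 1 or Trpm2-/- replicate 1 (0.12). That of Ptges turned under the replicate block (-0.29) and ran from -0.16 to 0.21 with a mouse left out, negative without WT replicate 3 or Trpm2-/- replicate 4 (-0.06). That of Ptger1 ran from -0.98 to 0.13, positive without WT replicate 1. Numbers 1 and 2 occur in both genotypes. Deviations of same-numbered mice had r = 0.05 and -0.01, while differently numbered pairs ran from -0.233 to 0.207. With so few mice, these values cannot tell whether same-numbered mice share more than a number. Under the replicate block in edgeR the adjusted p of Ptger4 was 0.0611. Over all genes, 1902 were called in the reported fit and 510 to 2954 over the alternatives. With 3 mice per genotype and 8 to 99 counts a library, Ptger1 and Ptgds bear only large differences.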
